A study of Mus musculus with 12 samples.

Results

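The BCL2 family decides whether a cell keeps its mitochondria sealed or starts apoptosis. Its 10 members followed here were Bcl2, Bcl2l1, Mcl1, Bcl2l11, Bid, Bak1, Bmf, Bik, Bad and Bok, and they were chosen by name. Every probe set that the platform annotation maps to one of these symbols alone was taken. This gave 34 of the 45101 probe sets on the array: 5 for Bcl2, 4 for Bcl2l1, 6 for Mcl1, 5 for Bcl2l11, 3 each for Bid, Bmf and Bik, 2 each for Bak1 and Bad, and 1 for Bok. No probe set named a member together with another gene.

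The samples were C4-HD tumours, a mammary carcinoma grown in BALB/c mice that had been given pellets of MPA (medroxyprogesterone acetate), a progestin. At a tumour size of 50 mm2 the progestin pellet was removed and MFP (mifepristone, which blocks the progesterone receptor) was given at 10 mg/kg/day. There were 12 arrays in 6 groups of 2: MPA, no MPA (this source name stands on arrays labelled with saline for 48 h), and MFP for 6 h, 12 h, 24 h or 48 h. All groups had grown under MPA, so each MFP group differs from the MPA group in both the loss of the progestin and the gain of the antagonist. The treatment protocol calls saline-treated tumours with MPA the control, which leaves the status of the no MPA group unclear, and the series text names no 6 h group. Genotype, age and the animal behind each array are not given in the labels, and each p-value rests on the spread of these arrays alone, which may be technical.

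Each value below is a log2 ratio whose denominator is the average of the 2 MPA arrays on the linear scale. A value of 1 is a doubling, and the 2 MPA values of a probe set lie on either side of 0 by construction. The ratios carry no absolute level, so neither levels of different genes nor the presence of a marker can be compared. Differences between groups come with the standard error (SE) of limma with n = 2 arrays per group, and adjusted p is limma's after Benjamini-Hochberg adjustment over all 45037 probe sets that are not array controls. A probe set is called where adjusted p was under 0.05. The replicate numbers 1 and 2 only name the arrays of a group. The 4 comparisons with MPA share the same MPA arrays and are not independent of each other. In these whole tumours, fewer cells of a type and less RNA per cell cannot be told apart.

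BCL2, BCL-XL (from Bcl2l1) and MCL1 hold cells alive by binding the death-promoting members. BAK and BOK are pore formers of the mitochondrial or intracellular membranes. BIM (from Bcl2l11), BID, BMF, BIK and BAD are BH3-only proteins, which sense stress and either block the survival proteins or activate the pore formers. In the mammary gland, BIM and BMF are known for their part in the death of epithelial cells that clears the ducts and follows weaning, and MCL1 for keeping milk-producing cells alive.

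Over the whole array the columns differed in their background of other tissues. The 11 measured liver genes had a median ratio of 3.64 and 4.11 in both arrays of MFP 24 h and between -2.88 and 1.11 elsewhere. Over 8 exocrine pancreas genes it was between 4.47 and 6.63 in 5 arrays, those of MFP 6 h and 48 h and MFP 24 h replicate 2, and at most 0.93 in the others. Skeletal muscle genes stood at 4.06 in MFP 48 h replicate 1 and at most 1.65 elsewhere. The macrophage median was 1.94 and 1.98 after 48 h and between -0.75 and 0.93 in all other arrays, and that of 7 mitosis genes was between -1.72 and -1.24 after 24 h and 48 h. The Actb control probe sets had a 3' minus 5' difference between -0.09 and 0.14 in MPA and no MPA, 0.20 and 0.13 after 6 h, and between 0.34 and 0.59 from 12 h on. The median over 8 luminal epithelial genes lay between -0.32 and 0.51. Of their 16 probe sets, 8 were called lower and 0 higher at 48 h than in no MPA (9.35% of all called). Against MPA at 48 h, 4 were called lower and 1 higher (9.25% of all called). The fibroblast median was 1.06 and 1.39 and the endothelial median 0.93 and 1.01 after 48 h, and at most 0.41 and 0.79 in the other arrays. The part of these shifts in the results below was not tested.

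In the family as a whole few probe sets passed the test. At 6 h of MFP 0 of 34 were called against MPA, with 0.926% of all probe sets called, and 12 of the 34 had an unadjusted p under 0.05 in limma, beside 6317 of all 45037. At 12 h 3 were called (3.13% of all probe sets), 3 again after 24 h (6.01%) and 3 after 48 h (9.25%). Each time these were 2 probe sets of Bcl2l11 that rose and 1 of Bid that fell. Of all probe sets 1.30% rose and 1.83% fell after 12 h, 2.88% and 3.13% after 24 h, and 4.37% and 4.88% after 48 h. The members' share, 3 of 34 or 8.82% at each of the 3 times, was close to that of all probe sets at 48 h. At 12 h and 24 h it was above that of all probe sets, with the 3 calls coming from 2 genes. The median difference over the 34 was 0.06 after 6 h, 0.22 after 12 h, 0.17 after 24 h and 0.13 after 48 h, and the medians over all probe sets were 0.02, 0.02, -0.05 and -0.02.

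**Figure D1:**
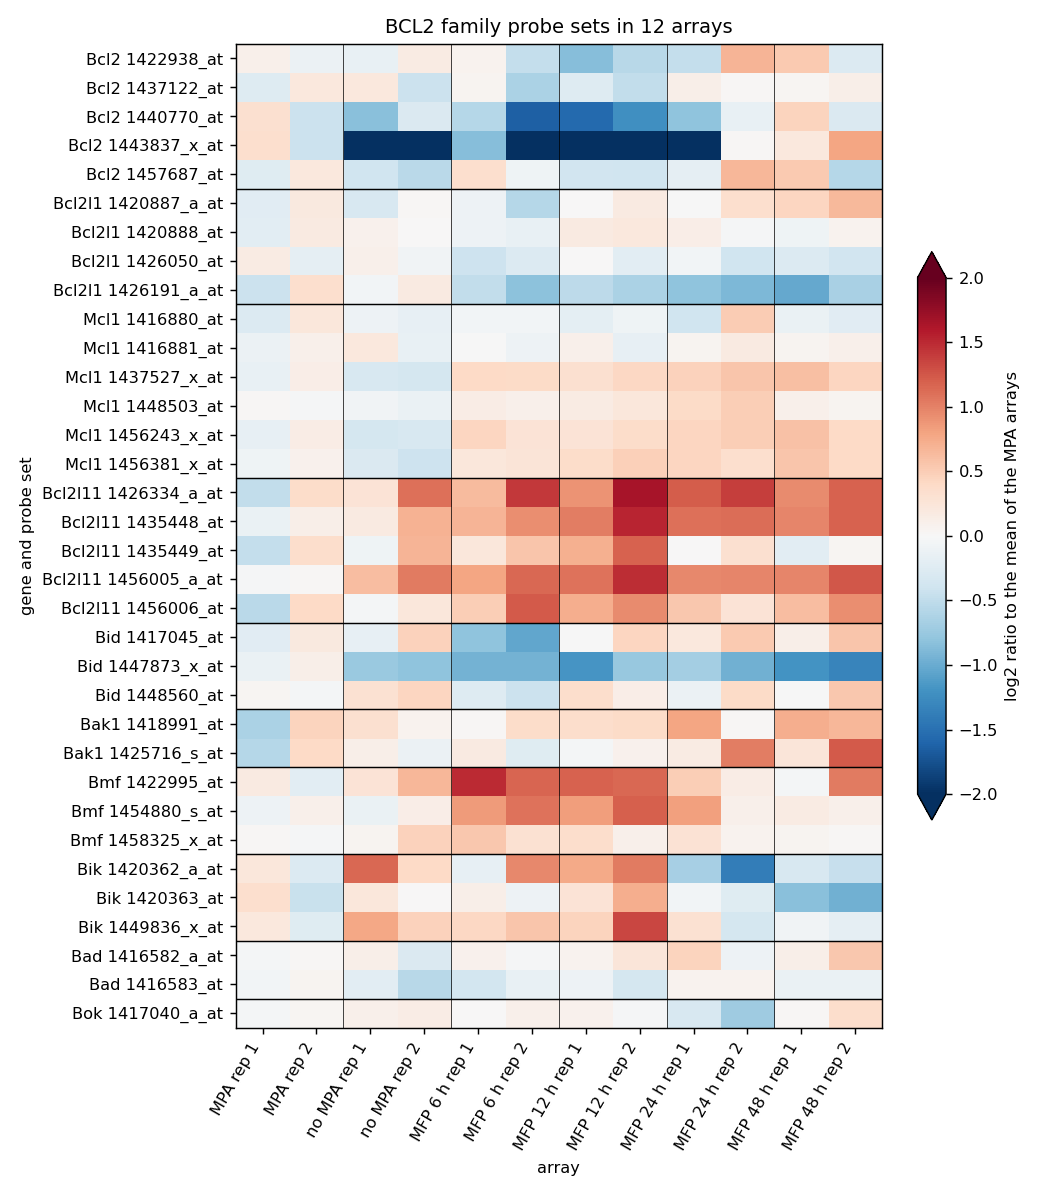
Rows are the 34 probe sets of the 10 genes, columns the 12 arrays, and colour is the log2 ratio against MPA, with values beyond 2 in size drawn at the end of the scale. The Bcl2l11 rows are mostly red in the MFP arrays, up to 1.66, and the Bcl2 row of 1443837_x_at is blue down to -2.57 in the no MPA, 6 h and 12 h columns.

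Bcl2l11, the gene of BIM, was the only member with probe sets called higher than MPA, although Bmf rose early without such a call. Probe set 1435448_at stood at -0.13 and 0.12 in the MPA arrays, 0.18 and 0.69 in no MPA, 0.68 and 0.93 after 6 h, 1.03 and 1.53 after 12 h, 1.10 and 1.11 after 24 h, and 0.97 and 1.18 after 48 h. Every MFP array was above both MPA arrays, and the 12 h to 48 h arrays were above both no MPA arrays too. Against MPA it was 2.44-fold higher at 12 h (log2 difference 1.29 ± 0.24 SE, adjusted p = 0.0199), 2.16-fold at 24 h (adjusted p = 0.0243) and 2.11-fold at 48 h (adjusted p = 0.0216). At 6 h the difference was 0.81 ± 0.24 and did not pass (adjusted p = 0.148). Within the MFP arrays its level had no called slope over the log2 of hours (0.06 ± 0.08 per doubling of time, adjusted p = 0.695).

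The second called probe set of Bcl2l11, 1456005_a_at, gave the same picture. It stood at -0.02 and 0.02 in MPA, 0.61 and 1.04 in no MPA, 0.79 and 1.14 after 6 h, 1.08 and 1.48 after 12 h, 0.96 and 0.97 after 24 h, and 0.98 and 1.24 after 48 h. All 10 other arrays were above both MPA arrays, the no MPA arrays included. It was 2.43-fold higher than MPA at 12 h (1.28 ± 0.22, adjusted p = 0.0158), 1.96-fold at 24 h (0.97 ± 0.22, adjusted p = 0.0320) and 2.16-fold at 48 h (1.11 ± 0.22, adjusted p = 0.0152), while at 6 h 0.97 ± 0.22 did not pass (adjusted p = 0.0769).

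For both Bcl2l11 probe sets the mean of the no MPA arrays lay between that of MPA and those of the 4 MFP groups, while the higher no MPA array (1.04 for 1456005_a_at and 0.69 for 1435448_at) lay within the range of the MFP arrays. For 1456005_a_at the difference of no MPA from MPA was 0.83 ± 0.22 (unadjusted p = 0.00384 in limma, which shares its spread over all 12 arrays, and adjusted p = 0.548). That of MFP 48 h from no MPA was 0.29 ± 0.22 with a 95% interval of -0.21 to 0.78. For 1435448_at the corresponding differences were 0.45 ± 0.24 and 0.64 ± 0.24 (interval 0.11 to 1.16, adjusted p = 0.133). Neither comparison called a Bcl2l11 probe set, and between no MPA and MPA limma called 0 probe sets of the whole array (0%), with 2963 at an unadjusted p under 0.05, 3 of them members.

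The other Bcl2l11 probe sets were noisier in MPA. 1426334_a_at had MPA values of -0.50 and 0.37 and lay between 0.64 and 1.66 in all MFP arrays (1.36 ± 0.39 after 24 h, adjusted p = 0.0730). 1456006_at lay between 0.28 and 1.23 in the MFP arrays and overlapped its higher MPA value of 0.39, and without MPA replicate 2 its 48 h difference was called (1.31, adjusted p = 0.0408), while without MPA replicate 1 it was 0.38 (adjusted p = 0.601). 1435449_at was highest at 12 h (0.72 and 1.19) and was back at -0.22 and 0.04 by 48 h, where its difference from MPA was -0.03 ± 0.33. Pairwise correlations between the 5 probe sets over the 12 arrays ranged from 0.56 to 0.93.

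At 12 h, where both called Bcl2l11 probe sets had their highest mean, the liver list stood at -2.11 and -1.57, the macrophage list at -0.07 and -0.09, the neutrophil list at -0.17 and 0.27 and the pancreas list at 0.16 and 0.93. The luminal epithelial median was 0.49 and 0.42 at 12 h, 0.51 and 0.29 in no MPA, and 0.06 and -0.09 in MPA. Of the 16 luminal probe sets 4 were called higher and 0 lower at 12 h against MPA (3.13% of all called). For Actb the 3' minus 5' value was 0.34 and 0.36 at 12 h. After 6 h it was 0.20 and 0.13, the pancreas list stood at 5.68 and 4.47, and 1456005_a_at at 0.79 and 1.14. The part of these shifts in the Bcl2l11 values was not tested. Leaving out any of the 4 arrays ended both calls at 12 h (adjusted p between 0.0502 and 0.150), with log2 differences between 1.04 and 1.53. At 24 h the same held (up to 0.133) except for 1435448_at without MPA replicate 2 (adjusted p = 0.0473). At 48 h both calls were lost without MPA replicate 1 (0.127 and 0.0823) or MFP 48 h replicate 2 (0.0991 and 0.0783), and that of 1435448_at also without MFP 48 h replicate 1 (0.0613).

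RefSeq promoter windows in the GRCm38.p6 build were found for 9 of the 10 members. Both starts of Bcl2l11 are shown because it was the only member called higher than MPA. Forkhead factors of the FOXO kind are also known regulators of this gene. The 250 bases before each start are printed on the plus strand, 5′ to 3′, with matches to the forkhead motif GTAAACA in capitals. The regions are chr2:128125788-128126037 for the upstream start and chr2:128127325-128127574 for the downstream start.
Bcl2l11 upstream start: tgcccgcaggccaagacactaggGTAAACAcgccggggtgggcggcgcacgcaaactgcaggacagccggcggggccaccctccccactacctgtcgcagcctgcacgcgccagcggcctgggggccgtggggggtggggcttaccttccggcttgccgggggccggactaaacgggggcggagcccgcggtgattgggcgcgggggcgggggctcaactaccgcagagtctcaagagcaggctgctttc
Bcl2l11 downstream start: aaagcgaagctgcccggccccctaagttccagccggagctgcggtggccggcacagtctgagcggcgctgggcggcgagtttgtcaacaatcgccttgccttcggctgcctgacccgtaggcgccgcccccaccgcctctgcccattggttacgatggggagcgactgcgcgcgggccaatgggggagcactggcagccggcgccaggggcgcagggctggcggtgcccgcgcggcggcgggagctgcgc
The upstream window held 1 match on either strand and the downstream window 0, and 3.17% of 32851 such windows of all genes held at least 1. No other window of a member held it. The core motif of steroid receptor elements, TGTTCT, searched on both strands, was in neither Bcl2l11 window and in 16.1% of all windows; among the members only the Bok window had it. Both Bcl2l11 windows are rich in G and C, at 72.0% and 73.2% against a median of 52.4%. A match of letters is a description and not a binding site.

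Bmf, a BH3-only gene whose protein is held at the cytoskeleton in resting cells, was high early and low late. Probe set 1454880_s_at stood at -0.11 and 0.10 in MPA, -0.13 and 0.14 in no MPA, 0.86 and 1.09 after 6 h, 0.84 and 1.20 after 12 h, 0.82 and 0.10 after 24 h, and 0.16 and 0.10 after 48 h. The 6 h and 12 h arrays were all above MPA, no MPA and 48 h, and the 24 h arrays disagreed with each other. It differed among the 6 groups by limma's F test (adjusted p = 0.0400, where 12.7% of all probe sets and 9 of the 34 passed). Neither single time passed against MPA: 0.98 ± 0.25 after 6 h (adjusted p = 0.107) and 1.02 ± 0.25 after 12 h (adjusted p = 0.0591). Its slope over the MFP times was -0.31 ± 0.09 per doubling of time (adjusted p = 0.0531), or -0.33 without MFP 24 h replicate 1 (adjusted p = 0.0454).

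Bmf probe set 1422995_at had the same early height and a split at the end. Its values were 1.50 and 1.16 after 6 h and 1.18 and 1.15 after 12 h, then 0.49 and 0.15 after 24 h and -0.04 and 1.03 after 48 h, against 0.18 and -0.21 in MPA and 0.27 and 0.67 in no MPA. The difference from MPA at 6 h was 1.34 ± 0.32 (adjusted p = 0.0894). The third, 1458325_x_at, never exceeded 0.53. The 2 MFP 24 h arrays, which disagree for 1454880_s_at, are also those with liver medians of 3.64 and 4.11, and their pancreas medians were 0.83 and 6.63.

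**Figure D2:**
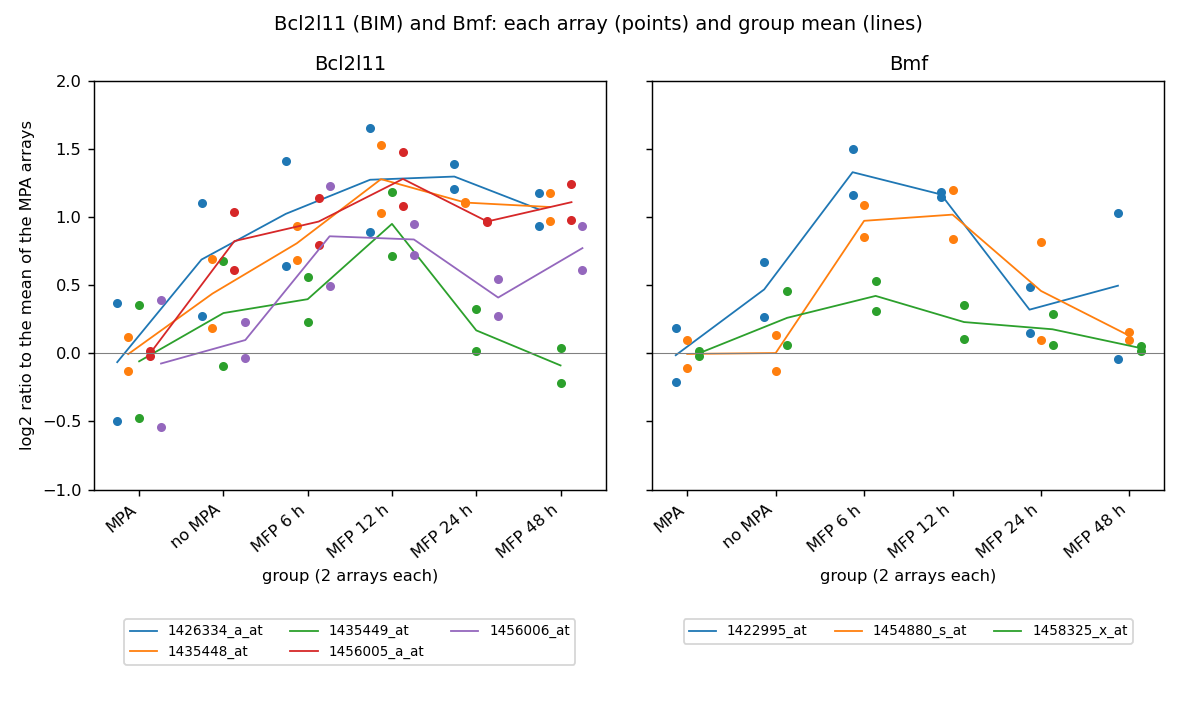
The plot gives the log2 ratio of every array (points) and each group's mean (lines) for the 5 Bcl2l11 and 3 Bmf probe sets over the 6 groups of 2 arrays. At 48 h Bcl2l11 1456005_a_at stays high at 0.98 and 1.24, while Bmf 1454880_s_at, at 0.86 and 1.09 by 6 h, is back at 0.16 and 0.10.

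Bid encodes a BH3-only protein that death receptor caspases cut into an active form. Its 3 probe sets did not move together. 1447873_x_at was low in every group outside MPA: -0.13 and 0.12 in MPA, -0.75 and -0.81 in no MPA, -0.94 and -0.94 after 6 h, -1.17 and -0.75 after 12 h, -0.68 and -0.97 after 24 h, and -1.19 and -1.32 after 48 h. All 10 arrays outside MPA were below both MPA arrays. The difference from MPA was -0.96 ± 0.20 after 12 h (adjusted p = 0.0326), -0.82 ± 0.20 after 24 h (adjusted p = 0.0403) and -1.25 ± 0.20 after 48 h, or 0.420 of the MPA mean (adjusted p = 0.00691). At 6 h it was -0.94 ± 0.20 (adjusted p = 0.0615) and in no MPA -0.77 ± 0.20 (adjusted p = 0.520). The 48 h call held without each of the 4 arrays in turn (adjusted p between 0.0254 and 0.0365). At 12 h and 24 h the call was lost without any single array (adjusted p between 0.0506 and 0.205).

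The other Bid probe sets did not show this fall. 1417045_at stood at -0.23 and 0.20 in MPA, -0.16 and 0.46 in no MPA, -0.80 and -1.04 after 6 h, -0.01 and 0.44 after 12 h, 0.21 and 0.52 after 24 h, and 0.11 and 0.55 after 48 h. Only the 6 h arrays were low, with a difference from MPA of -0.90 ± 0.28 (adjusted p = 0.171), and at 48 h the difference was 0.35 ± 0.28. 1448560_at followed 1417045_at with a correlation of 0.76, and its difference from MPA at 48 h was 0.26 ± 0.24. The suffix _x_at of the fallen probe set is Affymetrix's mark for probes that can also bind other transcripts, and which transcript it reads was not tested.

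Bik encodes a BH3-only protein of the endoplasmic reticulum. Its probe set 1420362_a_at stood at 0.23 and -0.28 in MPA, 1.15 and 0.40 in no MPA, -0.17 and 0.96 after 6 h, 0.76 and 1.04 after 12 h, -0.67 and -1.38 after 24 h, and -0.31 and -0.46 after 48 h. The no MPA and 12 h arrays were above all arrays of 24 h and 48 h, and the 6 h arrays disagreed. It differed among the groups (F test, adjusted p = 0.0389) without a call between any of the pairs of groups compared.

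Bik 1420363_at was called against no MPA instead. It stood at 0.34 and -0.44 in MPA, 0.23 and 0.00 in no MPA, 0.11 and -0.11 after 6 h, 0.28 and 0.72 after 12 h, -0.06 and -0.24 after 24 h, and -0.84 and -0.96 after 48 h. The 48 h arrays were the lowest of all 12. They differed from no MPA by -1.02 ± 0.26, or 0.493 of its level (adjusted p = 0.0380), and the difference from MPA was -0.85 ± 0.26 (adjusted p = 0.0724). Leaving out any of the 4 arrays ended the call against no MPA (adjusted p between 0.105 and 0.189). Without MPA replicate 2 the difference from MPA was -1.24 and passed (adjusted p = 0.0206), and without MPA replicate 1 it was -0.46 (adjusted p = 0.389). The luminal list median was -0.32 and -0.06 after 48 h and 0.51 and 0.29 in no MPA. The third probe set, 1449836_x_at, differed by -0.75 ± 0.31 in that comparison (adjusted p = 0.181).

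**Figure D3:**
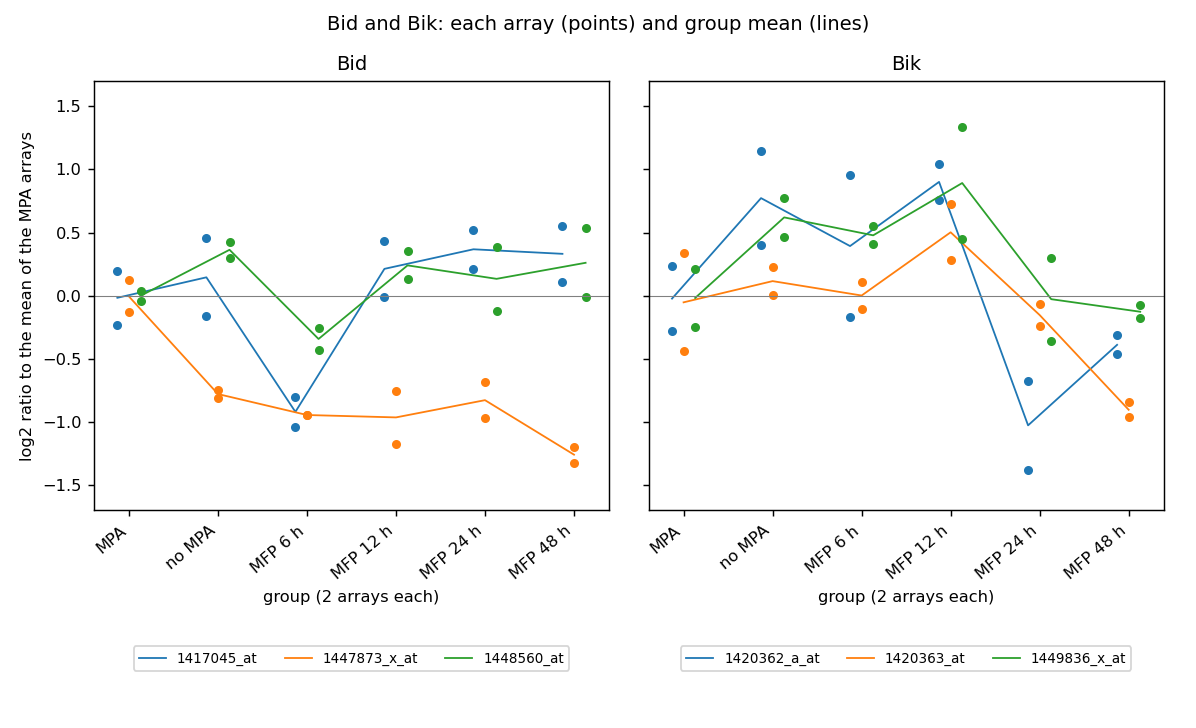
The plot gives the log2 ratio of every array (points) and each group's mean (lines) for the 3 Bid and 3 Bik probe sets. Bid 1447873_x_at lies between -0.68 and -1.32 in all arrays outside MPA, and Bik 1420363_at reaches its lowest values, -0.84 and -0.96, at 48 h.

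Bad, whose protein links growth factor signalling to survival, showed no call. Its probe set 1416583_at stood at -0.06 and 0.06 in MPA, -0.21 and -0.55 in no MPA, -0.37 and -0.16 after 6 h, -0.10 and -0.34 after 12 h, 0.07 and 0.07 after 24 h, and -0.14 and -0.13 after 48 h. The lowest array was in no MPA, and at 48 h the difference from MPA was -0.13 ± 0.19 with an interval of -0.55 to 0.28. The second Bad probe set, 1416582_a_at, lay between -0.29 and 0.54 in all arrays.

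The pore former genes Bak1 and Bok were not called in any test. Bak1 1425716_s_at stood at -0.56 and 0.40 in MPA, 0.11 and -0.11 in no MPA, 0.17 and -0.24 after 6 h, -0.04 and 0.09 after 12 h, 0.16 and 1.02 after 24 h, and 0.24 and 1.22 after 48 h. Its high values came from 1 array each at 24 h and 48 h, and the MPA arrays were almost 1 unit apart. At 48 h the differences from MPA were 0.81 ± 0.40 for this probe set and 0.79 ± 0.34 for 1418991_at (adjusted p = 0.184). Without MPA replicate 2 the latter was 1.33 with an adjusted p of 0.0347, and without MPA replicate 1 it was 0.26 with an adjusted p of 0.734.

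Bok 1417040_a_at stood at -0.04 and 0.04 in MPA, 0.11 and 0.14 in no MPA, 0.01 and 0.10 after 6 h, 0.08 and -0.02 after 12 h, -0.32 and -0.70 after 24 h, and 0.02 and 0.36 after 48 h. The MFP 24 h arrays, those with high liver genes, were the lowest (-0.51 ± 0.19 against MPA, adjusted p = 0.162).

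Among the survival genes Mcl1 was called higher at 48 h of MFP than in no MPA, in its _x_at probe sets only. Probe set 1437527_x_at stood at -0.14 and 0.13 in MPA, -0.32 and -0.35 in no MPA, 0.40 and 0.38 after 6 h, 0.33 and 0.42 after 12 h, 0.46 and 0.55 after 24 h, and 0.60 and 0.42 after 48 h. All 8 MFP arrays were above both MPA arrays, and both no MPA arrays were below them. At 48 h it was 1.80-fold higher than in no MPA (0.85 ± 0.17, adjusted p = 0.0144). The difference from MPA at 48 h was 0.52 ± 0.17 (adjusted p = 0.0904).

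The 2 other _x_at probe sets of Mcl1 moved with it, with correlations of up to 0.99. 1456243_x_at stood at -0.16 and 0.15 in MPA, -0.36 and -0.31 in no MPA, 0.42 and 0.28 after 6 h, 0.28 and 0.36 after 12 h, 0.43 and 0.49 after 24 h, and 0.58 and 0.40 after 48 h. 1456381_x_at stood at -0.09 and 0.09 in MPA, -0.28 and -0.42 in no MPA, 0.22 and 0.26 after 6 h, 0.36 and 0.48 after 12 h, 0.43 and 0.34 after 24 h, and 0.55 and 0.40 after 48 h. In both, no MFP array overlapped MPA or no MPA. Their differences between 48 h and no MPA were 0.83 ± 0.18 (adjusted p = 0.0183) and 0.83 ± 0.17 (adjusted p = 0.0145).

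The remaining Mcl1 probe sets, which lack that suffix, did not show the same rise. As for the Bid probe set, which transcripts the _x_at probe sets read was not tested. In the comparison of 48 h with no MPA, 1448503_at differed by 0.18 ± 0.16, 1416881_at by 0.05 ± 0.19 and 1416880_at by -0.05 ± 0.28. Macrophage and neutrophil medians were high at 48 h (1.94 to 2.53) and between -0.48 and -0.05 in no MPA. At 6 h 1437527_x_at was at 0.40 and 0.38, and those medians lay between -0.60 and -0.15. The exocrine pancreas median was 5.68 and 4.47 there. The part of such cells in the Mcl1 values was not tested. Leaving out no MPA replicate 1 or 2 or MFP 48 h replicate 1 ended all 3 calls (adjusted p between 0.0613 and 0.0978).

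Bcl2 was low in some groups and divided within others. 1443837_x_at stood at 0.33 and -0.43 in MPA, -2.08 and -2.26 in no MPA, -0.85 and -2.22 after 6 h, -2.57 and -2.20 after 12 h, -2.28 and 0.03 after 24 h, and 0.21 and 0.79 after 48 h. The no MPA and 12 h arrays were below all MPA and 48 h arrays, while the replicates at 6 h and at 24 h were apart by more than 1 unit. At 48 h it was 6.39-fold higher than in no MPA (2.68 ± 0.65, adjusted p = 0.0296), and leaving out any of the 4 arrays ended this call (adjusted p between 0.0778 and 0.135). The difference of 12 h from MPA was -2.34 ± 0.65 (adjusted p = 0.0870). Probe set 1443837_x_at carries the _x_at suffix too, and which transcripts it reads was not tested.

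Bcl2 is abundant in lymphocytes, and the B cell list varied between the same arrays. Its median over 4 measured genes was 2.94 in MFP 24 h replicate 2 and -0.22 in replicate 1, 0.89 and 0.29 after 6 h, 2.39 and -0.35 after 48 h, and -0.21 and -0.30 in no MPA. In MPA it was -0.53 and 0.34, where Bcl2 1443837_x_at was 0.33 and -0.43, and at 12 h it was 0.05 and -0.00, where that probe set was -2.57 and -2.20. The median of 7 T and NK cell genes lay between -0.31 and 0.76 in all arrays. The part of these cells in the Bcl2 values was not tested.

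The other Bcl2 probe sets differed less from MPA. 1440770_at was lowest at 12 h (-1.55 and -1.22) and at 6 h (-0.58 and -1.63), with -1.34 ± 0.41 after 12 h against MPA (adjusted p = 0.119). 1422938_at differed by -0.70 ± 0.38 after 12 h, and 1437122_at and 1457687_at by -0.36 ± 0.29 and -0.38 ± 0.37. All 5 probe sets were thus below the MPA mean at 12 h, none with a call. At 48 h the largest of the 5 differences from MPA was 0.55.

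Bcl2l1, the gene of BCL-XL and its splice forms, gave values in both directions. Probe set 1420887_a_at stood at -0.22 and 0.19 in MPA, -0.32 and 0.02 in no MPA, -0.10 and -0.57 after 6 h, 0.01 and 0.18 after 12 h, -0.01 and 0.34 after 24 h, and 0.44 and 0.65 after 48 h. Its slope over the MFP times, 0.27 ± 0.07 per doubling of time, was the only one called among the 34 (adjusted p = 0.0409, with 9.28% of all probe sets called and 4.96% called upward). The 48 h arrays were above all others.

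In contrast 1426191_a_at stood at -0.43 and 0.33 in MPA, -0.05 and 0.18 in no MPA, -0.49 and -0.82 after 6 h, -0.52 and -0.63 after 12 h, -0.81 and -0.90 after 24 h, and -1.02 and -0.65 after 48 h. Every MFP array was below the MPA and no MPA arrays. Its differences at 48 h were -0.79 ± 0.26 from MPA (adjusted p = 0.0886) and -0.90 ± 0.26 from no MPA (adjusted p = 0.0571). After 24 h the difference from MPA was -0.81 ± 0.26 (adjusted p = 0.103), and without MPA replicate 1 it was -1.19 (adjusted p = 0.0457). Without MPA replicate 2 it was -0.42 (adjusted p = 0.417). The slope call of 1420887_a_at was lost without either array of MFP 6 h or of 48 h, without MFP 12 h replicate 1 or MFP 24 h replicate 2 (adjusted p between 0.0586 and 0.160), and correlations between the 4 probe sets ranged from -0.48 to 0.42.

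**Figure D4:**
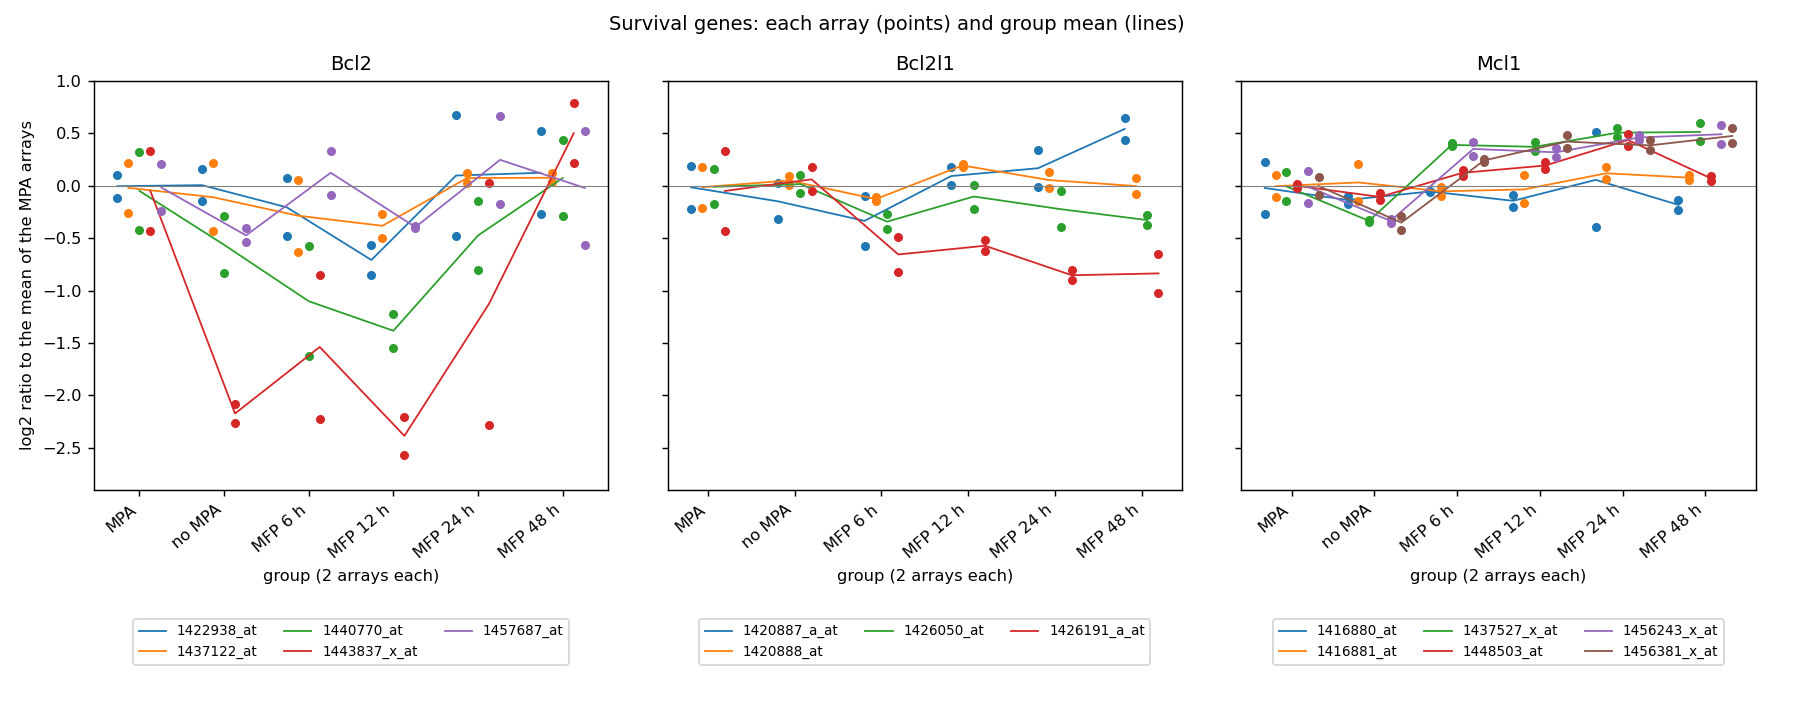
The plot gives the log2 ratio of every array (points) and each group's mean (lines) for the probe sets of the 3 survival genes on one scale. Bcl2 1443837_x_at drops to -2.08 or lower in no MPA and at 12 h and is at 0.21 and 0.79 after 48 h, while the Mcl1 probe sets stay between -0.42 and 0.60.

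The comparison of MFP 48 h with the arrays labelled no MPA called 5 of 34 member probe sets (9.35% of all). These were the Bcl2 probe set, the 3 of Mcl1 and 1 of Bik, so that 4 of 15 survival gene probe sets were higher and 1 of 16 BH3-only probe sets was lower, with 5.08% of all probe sets higher and 4.28% lower. Against MPA at the same time 0 of 15 survival and 3 of 16 BH3-only probe sets were called, 2 higher and 1 lower, with 9.25% of all probe sets called (4.37% higher and 4.88% lower), and in both comparisons 0 of 3 for the pore formers. Of the 5 calls 4 were from _x_at probe sets. The 4 survival calls came from 2 genes, and the 3 Mcl1 probe sets had correlations of up to 0.99. They are thus not independent of each other.

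**Figure D5:**
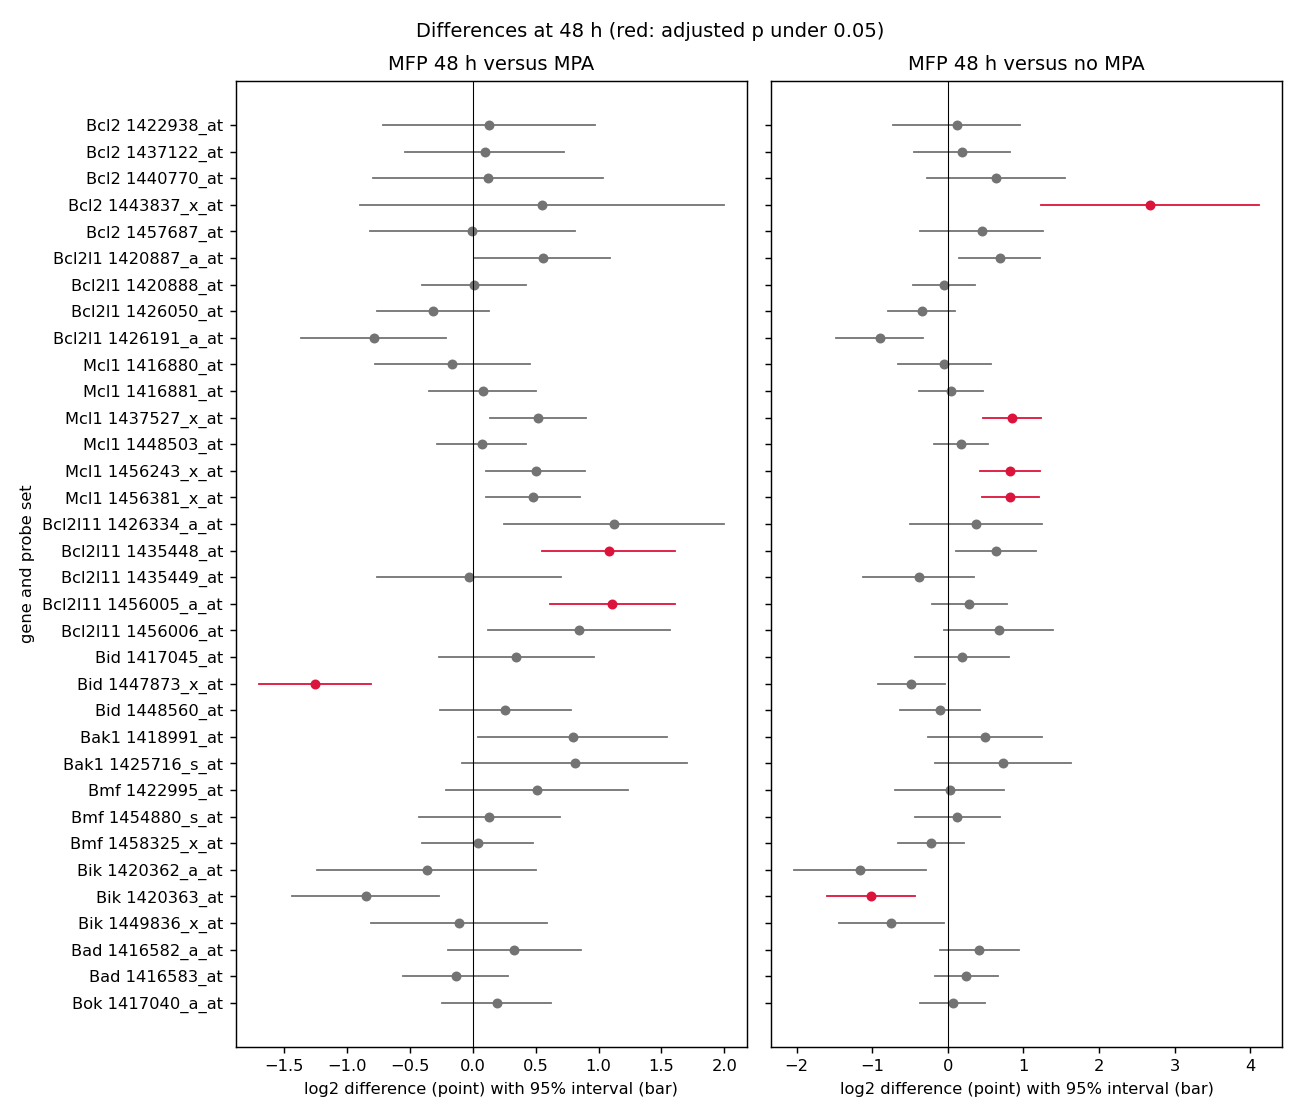
For each of the 34 probe sets the point is the log2 difference and the bar its 95% interval from limma, MFP 48 h against MPA on the left and against no MPA on the right (the axes differ), with called probe sets in red. The called probe sets are 2 of Bcl2l11 and 1 of Bid on the left, and 1 of Bcl2, 3 of Mcl1 and 1 of Bik on the right, where Bcl2 1443837_x_at has the widest interval, 1.23 to 4.12.

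As a description, the genes of a role were averaged within each array, each gene by the mean of its probe sets. The ratios carry no level, so these means do not measure a balance of survival and death. The BH3-only mean was -0.04 and 0.01 in MPA, 0.14 and 0.21 in no MPA, 0.17 and 0.30 after 6 h, 0.38 and 0.62 after 12 h, 0.24 and 0.05 after 24 h, and -0.01 and 0.18 after 48 h. The survival gene mean was -0.08 and 0.05 in MPA, -0.28 and -0.30 in no MPA, -0.09 and -0.44 after 6 h, -0.34 and -0.30 after 12 h, -0.23 and 0.14 after 24 h, and 0.13 and 0.02 after 48 h. By group the BH3-only and survival means were farthest apart at 12 h. They overlapped in MPA, at 24 h and at 48 h. The pore former mean was -0.32 and 0.23 in MPA and 0.25 and 0.65 after 48 h. At 12 h the Bcl2 gene mean was -1.12 and -0.98, with its probe set 1443837_x_at at -2.57 and -2.20. The means of Bcl2l1 were -0.08 and -0.12 there and those of Mcl1 0.17 and 0.20.

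Of the other BCL2 family genes on the list 11 of 17 were measured, with 22 probe sets. At 48 h against MPA 2 probe sets rose and 2 fell (9.25% of all probe sets called), with a list median of -0.10. Pmaip1, whose product NOXA binds MCL1, stood at -0.10 and 0.09 in MPA, 0.02 and -0.86 in no MPA, between -0.54 and 0.33 from 6 h to 24 h, and 1.44 and 1.25 after 48 h. It rose by 1.35 ± 0.26 against MPA (adjusted p = 0.0135) and by 1.77 ± 0.26 against no MPA (adjusted p = 0.00413), and only the 48 h arrays were high. The call against MPA was lost without MPA replicate 1 (adjusted p = 0.0840) or MFP 48 h replicate 1 (adjusted p = 0.0692).

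Bcl2l14, a family member of less settled function, was high in all arrays outside MPA for 1424814_a_at, from 0.60 to 1.62. It rose by 1.50 ± 0.19 after 12 h (adjusted p = 0.00647, and 0.0623 without MFP 12 h replicate 2) and 1.24 ± 0.19 after 24 h (adjusted p = 0.00624), and was at 0.70 ± 0.19 after 48 h (adjusted p = 0.0484), a call lost without any of the 4 arrays (up to 0.233). Hrk, another BH3-only gene, fell at 48 h in both of its called probe sets, with differences of -1.53 ± 0.32 for 1450366_at (adjusted p = 0.0179) and -1.06 ± 0.23 for 1439854_at (adjusted p = 0.0193). Leaving out MPA replicate 2 or MFP 48 h replicate 2 ended both Hrk calls (adjusted p between 0.0580 and 0.106). Without MPA replicate 1 that of 1439854_at was lost too (0.0938), and without MFP 48 h replicate 1 that of 1450366_at (0.0636). The Bbc3 (PUMA) probe set lay between -0.53 and 0.44 in all arrays.

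Downstream of the mitochondria 15 of 18 listed genes of the apoptosome, caspases and their inhibitors were measured with 34 probe sets. At 48 h 4 rose and 0 fell (9.25% of all called, 4.37% up and 4.88% down). At 24 h 2 rose and 1 fell (6.01% of all called). The list medians were 0.07 at 48 h and -0.03 at 24 h. Xiap, which inhibits caspases, rose in 2 of its probe sets: 1450231_a_at by 1.21 ± 0.26 (adjusted p = 0.0208) and 1437533_at by 0.87 ± 0.17 (adjusted p = 0.0154) at 48 h. In both the no MPA arrays were also above MPA, at 1.11 and 0.86 in the first. The other Xiap probe sets were not called at 48 h against MPA and lay between -0.17 and 0.50 there. Htra2, a mitochondrial protease that counters XIAP once released, rose at 48 h in both called probe sets, 1460495_s_at by 1.24 ± 0.25 (adjusted p = 0.0165) and 1436269_s_at by 1.07 ± 0.29 (adjusted p = 0.0456). Without MPA replicate 1 these 4 calls were lost (adjusted p = 0.125, 0.0944, 0.110 and 0.250). Leaving out MFP 48 h replicate 2 ended those of Xiap and of 1460495_s_at (0.0518 to 0.110), and leaving out MFP 48 h replicate 1 those of 1437533_at (0.0725) and 1436269_s_at (0.244).

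Birc5 (survivin), which also serves mitosis, fell at 24 h, with a difference of -2.17 ± 0.46 (adjusted p = 0.0232), when the mitosis list stood at -1.72 and -1.43. Its 24 h arrays were far apart, and without replicate 1 or 2 of that group the difference was -1.25 (adjusted p = 0.0316) or -3.10 (adjusted p = 0.00209). That call was lost without MPA replicate 1 (adjusted p = 0.0777) or 2 (adjusted p = 0.0902). Cycs, the gene of cytochrome c, lies outside the rule for named genes and was chosen after its values were seen, as the source of the 2 calls of this list at 6 h. Those were 1422484_at (-1.04 ± 0.18, adjusted p = 0.0302) and 1422483_a_at (adjusted p = 0.0469), and both were lost without any of the 4 arrays (adjusted p between 0.0979 and 0.229).

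In the death receptor list 11 of 12 genes were measured with 22 probe sets, and 1 probe set rose at each MFP time, Cflar 1449317_at, where between 0.926% and 9.25% of all probe sets were called. Its product FLIP blocks the caspase that would cut BID. The other Cflar probe sets were not called against MPA and lay between -0.20 and 0.65 after 6 h. Probe set 1449317_at stood at 0.09 and -0.09 in MPA, 0.46 and 0.25 in no MPA, 1.46 and 1.31 after 6 h, 0.88 and 1.15 after 12 h, 0.87 and 1.18 after 24 h, and 1.53 and 0.99 after 48 h. All MFP arrays were above MPA and no MPA, with a difference of 1.39 ± 0.23 already at 6 h (adjusted p = 0.0263), a call lost without any of the 4 arrays (adjusted p between 0.0665 and 0.153). The 12 h call was also lost without any of its 4 arrays (0.0963 to 0.232), the 24 h call was kept without MFP 24 h replicate 1 (0.0377) and lost in the other 3 cases (up to 0.150), and the 48 h call was lost without MFP 48 h replicate 1 (0.0583).

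Of regulators of the family 16 of 17 listed genes were measured with 50 probe sets, and 0 were called at 6 h, 12 h or 24 h, with 8, 2 and 8 at an unadjusted p under 0.05 in limma, beside 6317, 7602 and 9344 of all 45037. At 48 h 1 rose and 2 fell, with 4.37% of all probe sets up and 4.88% down. Foxo3, a forkhead factor known to switch on Bcl2l11, fell at 48 h in 1434832_at (-1.48 ± 0.27, adjusted p = 0.0113) and 1434831_a_at (-1.10 ± 0.19, adjusted p = 0.00904). At 12 h, where the 2 called Bcl2l11 probe sets had their highest means, Foxo3 1434831_a_at was at -0.12 and 0.21. Another Foxo3 probe set, 1450236_at, was at 0.42 and 0.53 after 6 h and 0.43 and 0.32 after 12 h. In all other arrays 1450236_at lay between -0.17 and 0.18, and it was not called against MPA. The part of Foxo3 in the Bcl2l11 values was not tested. Usp9x, a deubiquitinase that stabilises MCL1, rose in 1 of its probe sets at 48 h (1428194_at, 0.98 ± 0.23, adjusted p = 0.0294). That call was lost without MPA replicate 1 (0.174) or either 48 h array (0.0673 and 0.136), those of Foxo3 without MPA replicate 1 (1434831_a_at, 0.0586) and MFP 48 h replicate 2 (1434832_at, 0.0593). Compared with no MPA, 6 of the 50 probe sets of this list were lower at 48 h and 0 were higher, while 4.28% of all probe sets were lower and 5.08% higher. They were 2 each of Stat5a and Foxo3 and 1 each of Dynll2 and Huwe1. Stat5a 1450259_a_at stood at 1.33 and 1.75 in no MPA, -0.41 and -0.19 after 48 h, and 0.00 and -0.00 in MPA. Both Stat5a calls were kept without any 1 of the 4 arrays (adjusted p between 0.00781 and 0.0364). Those of Dynll2, Huwe1 and Foxo3 1434831_a_at were lost in each case (adjusted p between 0.0567 and 0.239), and that of Foxo3 1434832_at was kept without MFP 48 h replicate 1 (adjusted p = 0.0328) and lost in the other 3 cases. These names were chosen after their values were seen.

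The genes whose values followed the leading members most closely over the 12 arrays are given as a description. For Bcl2l11 1435448_at these were Capn5 (Pearson r = 0.98), Osbpl3 (0.95) and Prkab1 (0.95). For Mcl1 1437527_x_at they were Tspo (0.94), Iqgap1 (0.94) and Oas1a (0.93). For Bid 1447873_x_at they were Gm10033 (0.95), Zfp317 (0.93) and 1810058I24Rik (0.93). They are the highest of the probe sets with 1 gene symbol, 34945 in number, and share the same arrays.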

How the data were processed

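RNA from formalin-fixed tumours was hybridised to Affymetrix whole-genome mouse arrays, with 200 ng of input per array, per the labels' protocols. The authors deposited log2 values. Per the submitters' processing notes GCRMA was used, with no version given. In the deposited values the linear mean of the 2 MPA arrays was 1, within 0.0001, for 45099 of 45101 probe sets, which shows the ratio. Signal above background cannot be read from ratios, so no filter on dim probe sets was made, and the number of arrays limits the precision.

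Probe sets were named through GEO's platform annotation: 34945 with 1 gene symbol, 932 with several and 9160 with none. limma 3.58.1 in R 4.3.3 fitted the means of 6 groups (6 residual and 4.38 prior degrees of freedom), contrasts between groups, an F test over the groups and, in the 8 MFP arrays, a slope on log2 of hours. The procedure was tested on simulated data.

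The members and gene lists were chosen with earlier results of these data known. All 12 values are given for called probe sets, for the lowest F-test p of each member without one, and for probe sets of called members with the other direction. From each pathway list up to 4 genes per direction called at 24 h or 48 h against MPA are named. Promoter windows are the 250 bases before RefSeq starts in GRCm38.p6. Alternatives were other scalings, feature sets, weights, variance priors, the 2 groups alone and leaving out arrays.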

Additional observations from a re-analysis of the deposited data

How the results depend on the processing

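Of 320 values of member probe sets under alternatives, 223 kept their side of the threshold, 82 lost the call and 15 gained one. Only results called in the main fit or in some alternative are among these values. No direction reversed in them, but that choice of results made a reversal unlikely beforehand. The 223 include results that were not called in the main fit and stayed so. They are thus not a count of calls that held. Quantile normalization between arrays ended all member calls against MPA at 12 h, 24 h and 48 h, against no MPA and in the F test (0 each), and gave 3 slopes. With 1 probe set per gene, the one of largest SD, the counts were 0, 0 and 0 against MPA, 2 against no MPA, 0 slopes and 3 in the F test. Fitting only the arrays of the 2 groups compared gave 0, 0 and 0 against MPA and 2 against no MPA. Array weights gave 0 at 24 h, 6 against no MPA and 11 in the F test, and a prior robust to outlying variances gave 2 slopes. The next 2 alternatives were chosen after seeing the data. Without both MFP 24 h arrays the count was 5 at 12 h and 0 for the slope. Among probe sets not ending in _x_at or _s_at it was 1 against no MPA and 3 in the F test. Leaving out each array in turn gave counts of 0 to 0 at 6 h, 0 to 0 at 12 h, 0 to 1 at 24 h, 1 to 6 at 48 h (6 without MPA replicate 2), 0 to 3 against no MPA, 0 to 2 slopes and 1 to 7 in the F test. In those fits the lone array is assumed to vary like the other groups. Counts over all probe sets are not given for these alternatives, so the changes cannot be read as particular to the members. The cause of these changes was not tested. No paired analysis was possible because the labels carry no replicate numbers; the numbers used here follow accession order and pair nothing.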
